A study of Rattus norvegicus with 39 samples.

Results

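The most abundant piRNAs of rat sperm were described here across 4 doses of EGME, the solvent ethylene glycol monomethyl ether. They are the 300 piRNA entries with the largest summed count over all 39 libraries, chosen by that sum from 41448 rat piRNA entries in a table of 78572 RNAcentral entries. RNAcentral is a database that merges non-coding RNA records of many sources. Of all piRNA entries, 38898 had at least 1 count in some library. All animals were wild-type male Fischer rats, 11 to 12 weeks old when sperm was taken from the cauda epididymis. They were gavaged daily for 5 days and left unexposed for 5 weeks. Group EGME0 received the water vehicle (n = 10), and EGME50 (n = 10), EGME60 (n = 9) and EGME75 (n = 10) received 50, 60 and 75 mg EGME/kg/d. Each library held the sperm RNA of 1 male, and whole sperm RNA cannot tell fewer cells of one kind from less RNA per cell.

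PIWI-interacting RNAs (piRNAs) are short single-stranded RNAs that are loaded onto PIWI proteins of the Argonaute family. In the male germ line they guide the silencing of transposons, and the abundant pachytene piRNAs are made from long precursor transcripts during meiosis. Mature sperm keep a remainder of these RNAs, beside fragments of tRNA and rRNA. EGME is converted to methoxyacetic acid and is known as a toxicant of spermatocytes. Entries are called by their database names (piR-rno and a number), which give no role for a single piRNA. Sequences of these entries are not used here.

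Depth differed widely between libraries. The table held 98123 to 12856657 counts per library (median 2584770) and 2651 to 301362 piRNA counts. The 2 libraries with the fewest piRNA counts, replicate 33 of EGME0 and replicate 24 of EGME75, detected 205 and 102 of the 300 piRNAs. Replicates 22 and 38 of EGME60 and replicate 7 of EGME75 stood apart by their make-up: entries of ribosomal RNA (rRNA) took 78.8%, 80.2% and 90.7% of their table counts, against 34.1% to 55.6% in EGME0. The rRNA share was 32.6% to 80.2% over EGME60 (median 50.7%) and 48.4% to 90.7% over EGME75 (median 73.9%). High shares were thus common at EGME75. Counts of calls are given with and without the libraries that stood apart. A further limit is that 1 read may have been counted in several entries with shared sequence.

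The 300 piRNAs held 63.5% of all piRNA counts and 1.95% of all table counts, while all piRNA entries together held 3.06% of table counts. Counts were concentrated in few entries. Summed counts ran from 306569 for piR-rno-49041 to 825 for piR-rno-58410, with a median of 1411. The first 5 entries held 45.9% of the members' counts, the first 10 held 59.8%, and 7 entries were enough for 50% of them. At the edge of the choice, piR-rno-58410 at rank 300 had 825 counts and the next entry, piR-rno-38558, had 823. No 2 of the 300 entries had identical counts, and 68 were detected in all 39 libraries. All but 1 were detected in at least 30 libraries. The exception, piR-rno-3426049, had counts in 18 libraries, and 714 of its 836 counts (85.4%) came from replicate 33 of EGME0. That entry did not pass the filter on low counts, so 299 of the 300 were tested.

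The share of table counts that fell on piRNA entries was lower at EGME75. It was 4.45% ± 1.89 (SD, n = 10) in EGME0, 4.48% ± 2.56 (n = 10) in EGME50, 3.21% ± 2.53 (n = 9) in EGME60 and 2.29% ± 0.872 (n = 10) in EGME75. The groups overlapped: EGME0 libraries lay between 2.45% and 7.89%, and EGME75 libraries between 1.15% and 3.8%, with 10 of 10 EGME75 libraries below the EGME0 median. The difference of -2.16 percentage points at EGME75 passed a two-sided permutation test (p = 0.00324, 0.00972 after Benjamini-Hochberg adjustment over the 3 doses). At EGME60 the difference was -1.23 points (exact permutation p = 0.238, adjusted 0.358). At EGME50 it was 0.0374 points (permutation p and adjusted p = 0.974). With sequencing chip as a block, the EGME75 difference was -1.74 points and no longer passed (adjusted permutation p = 0.242). Only chips 2, 5, 6, 7, 9 and 12 held both an EGME0 and an EGME75 library, which limits this comparison. On each of these chips the EGME75 library had the lower share. Examples are 3.80% against 7.89% on chip 6 and 2.70% against 2.98% on chip 7. With the counts of all 4 deposited tables as the denominator the EGME75 difference was -0.0561 points (adjusted permutation p = 0.741). The share of rRNA entries among table counts moved the opposite way, with means of 44.0%, 44.0%, 55.6% and 72.5% from EGME0 to EGME75, and that of transfer RNA (tRNA) entries was 42.4%, 41.7%, 32% and 16.1%. Their part in the result was not tested.

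Within the piRNA counts, the 300 took a mean of 58.9% ± 15.6 (SD, n = 10) in EGME0, 61.0% ± 11.4 (n = 10) in EGME50, 68.6% ± 19.9 (n = 9) in EGME60 and 78.1% ± 16 (n = 10) in EGME75. These shares are a description, since summed counts selected the members. Choosing the 300 by their mean share per library, which weights all libraries equally and keeps 270 of them, gave 60.5%, 60.5%, 68.6% and 78.6%. The piRNA entries outside the 300 took 1.67% ± 0.617 of table counts in EGME0 and 0.602% ± 0.660 in EGME75 (n = 10 each).

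**Figure D1:**
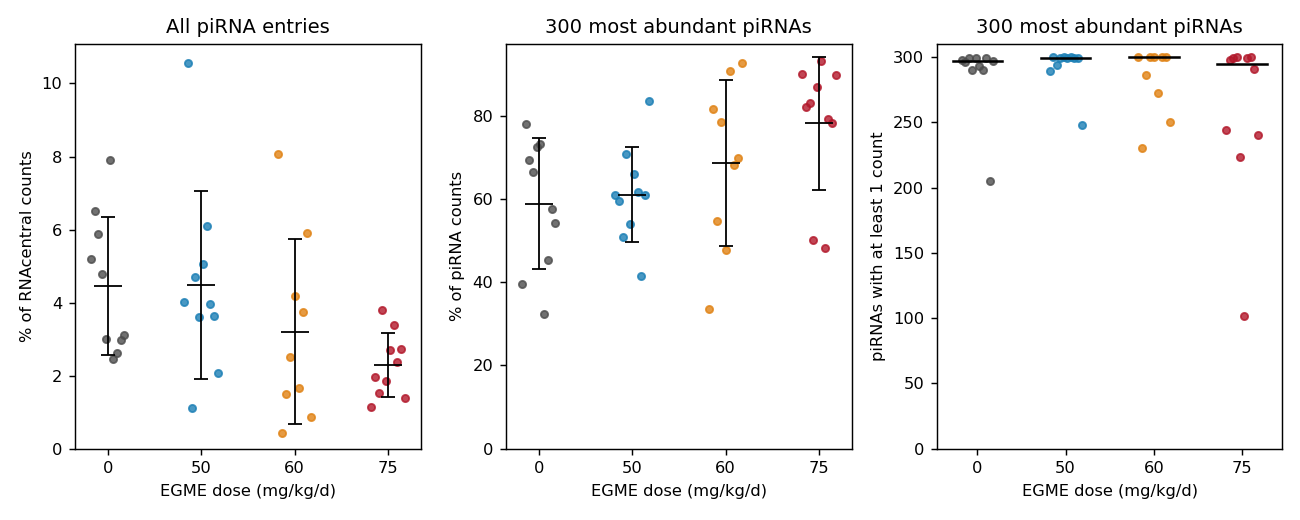
Points are libraries at each dose in mg/kg/d. Left, piRNA entries as percent of table counts, and middle, the 300 piRNAs as percent of piRNA counts, both with mean and SD bars. Right, the number of the 300 with at least 1 count, with the group median as a line. The piRNA share was 4.45% in EGME0 and 2.29% in EGME75, and the lowest detection, 102, was in EGME75.

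Each piRNA was then compared between a dose group and EGME0 with edgeR's quasi-likelihood test, called at a Benjamini-Hochberg adjusted p under 0.05. One fit covered the whole table (2757 entries tested) and another only piRNA entries (1130 tested), so that the second compares piRNAs with one another. At EGME75 the whole-table fit called 66 of the 299 higher and 76 lower. Of all entries tested in it, 19.8% were called higher and 18% lower, so the members' shares of 22.1% and 25.4% lay close to the background. Among the 1102 other piRNAs tested, 44 (3.99%) were higher and 190 (17.2%) lower. The median log2 fold change was -0.82 over the members and -0.62 over all entries. At EGME60 the whole-table fit called 64 members higher (21.4%) and 0 lower, with 73 at an unadjusted p under 0.05 in either direction. The background there was 20.3% higher and 0.58% lower, and 37 of the 1102 other piRNAs (3.36%) were higher. DESeq2 called 52 members higher and 18 lower at EGME60. The medians were -0.27 over the members and -0.16 over all entries. At EGME50 it called 2 members higher (0.669%) and 0 lower, with 27 at an unadjusted p under 0.05, against a background of 1.49% higher and 0.0363% lower. DESeq2 called 3 higher and 0 lower. A linear trend over the 4 doses was called upward for 66 members and downward for 16, where 19.9% and 7.91% of all entries were called.

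All 64 members called higher at EGME60 were also among the 66 called higher at EGME75 (97.0% of those). Both comparisons share the EGME0 libraries. For the 66, the median log2 fold change was 1.07 at EGME50, 3.6 at EGME60 and 3.68 at EGME75, with ranges of -1.10 to 3.10, 1.48 to 5.78 and 1.54 to 6.62. For the 76 called lower at EGME75, the medians were -0.24, -0.54 and -1.47. The 76 ranged from -2.37 to -0.98 at EGME75. The EGME75 calls formed both groups, and every dose is set against the same EGME0 libraries. These medians are thus a description.

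At EGME75 the number called higher in the whole-table fit varied little with the scaling of the counts, and the number called lower varied much. There were 66 higher and 76 lower with trimmed-mean (TMM) factors, 62 and 177 with median-of-ratios (RLE) factors, 58 and 123 with library totals, and 63 and 194 with DESeq2. These choices moved the median of all entries from -0.62 (TMM) to -1.38 (RLE) and -1.32 (totals). With chip as a block, 59 were higher and 11 lower, and with no filter on low counts 63 and 3. Of the 66, 58 were called higher in all 3 scalings and 56 in all 7 settings compared. Of the 76, all were called lower in the 3 scalings, but 1, piR-rno-49249, in all 7 settings. At EGME60, 44 of the 64 were called in all 3 scalings and 43 in all 7. The EGME60 split was 50 higher and 10 lower with RLE factors and 44 higher and 2 lower with library totals. Without replicates 22 and 38 of EGME60, 44 members were called higher and 0 lower there, while EGME75 had 68 higher and 93 lower and the slope 66 upward and 14 downward. Without replicate 7 of EGME75, 61 were higher and 47 lower at EGME75, 65 higher and 0 lower at EGME60, and the slope had 63 and 13. The slope gave 59 upward and 99 downward with RLE factors, 57 and 33 with library totals, and 65 and 144 with DESeq2. Leaving out 1 library at a time gave 61 to 71 higher at EGME75, but 7 to 95 lower. The total of 142 calls fell to 72, 83, 82 and 77 without replicates 1, 9, 10 and 18 of EGME0. It fell to 78, 86 and 88 without replicates 4, 19 and 27 of EGME50, and to 90 without replicate 29 of EGME60.

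Among piRNAs alone, the fit called 68 of the 299 members higher and 35 lower at EGME75, where 11.4% and 12.4% of the 1130 piRNAs were called. The members' shares were 22.7% and 11.7%, and among the 831 other piRNAs tested 61 (7.34%) were higher and 105 (12.6%) lower. The choice of members by summed counts shapes this contrast too. At EGME60 it called 69 members higher and 0 lower, with 81 at an unadjusted p under 0.05, against 11% and 0.531% of all piRNAs. DESeq2 called 25 higher and 75 lower there. At EGME50 edgeR called 0 members, with 15 at an unadjusted p under 0.05, and 0% of all piRNAs in the upward and 0% in the downward direction, while DESeq2 called 1. The slope was called upward for 66 and downward for 13 members, where 11% and 4.69% of all piRNAs were called. Scaling mattered more in this fit. With RLE factors 34 were higher and 232 lower at EGME75, and 7 higher and 12 lower at EGME60. The RLE slope had 33 upward and 226 downward calls. DESeq2 called 37 higher and 231 lower at EGME75, with slope calls of 40 and 231. Library totals gave 61 higher and 70 lower at EGME75. The median over all piRNAs at EGME75 moved from -0.54 with TMM factors to -3.03 with RLE factors and -1.07 with totals. With chip as a block 45 were higher and 11 lower at EGME75, 36 and 0 at EGME60, and the slope was called upward for 45 and downward for 1. Without replicates 22 and 38 of EGME60, 36 were higher at EGME60, 68 higher and 20 lower at EGME75, and the slope had 68 upward and 4 downward calls. Without replicate 7 of EGME75, 61 were higher and 6 lower at EGME75, 69 higher at EGME60, and the slope had 62 and 4. Without replicate 24 of EGME75, 67 were higher and 7 lower at EGME75.

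**Figure D2:**
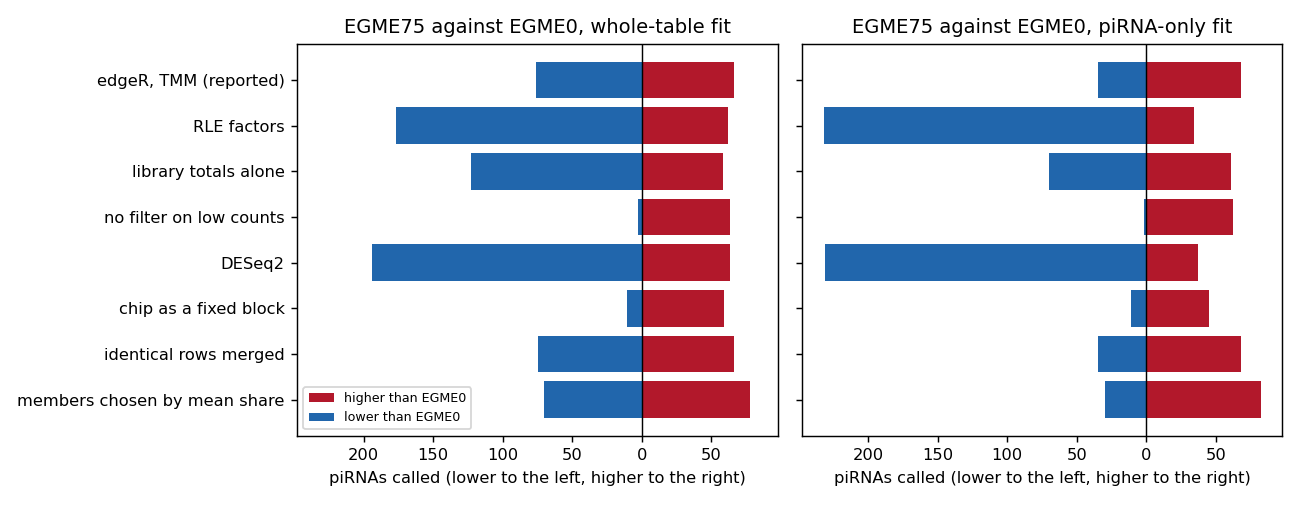
Bars give the number of tested members called higher (right) or lower (left) at EGME75 than in EGME0, in 8 settings, for the whole-table fit and the piRNA-only fit. In the whole-table fit the higher calls lie between 58 and 78 in the settings drawn and the lower calls between 3 and 194.

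**Figure D3:**
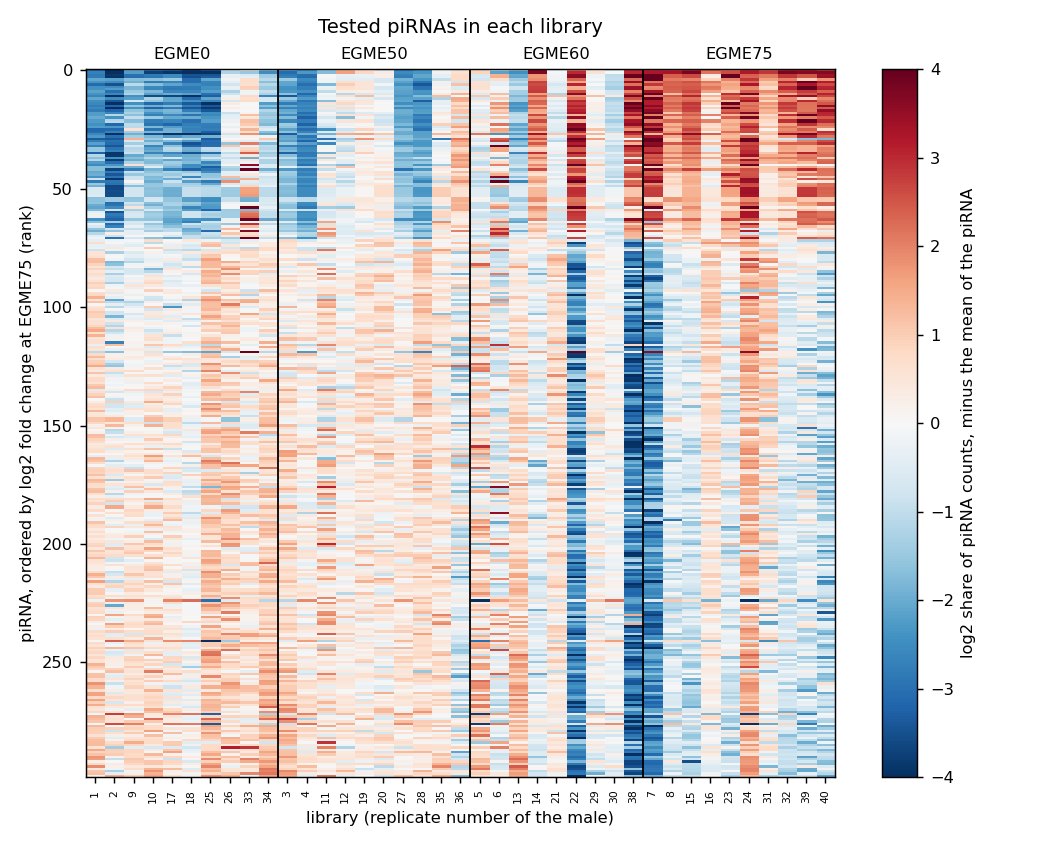
Rows are the 299 tested members, ordered from the highest to the lowest log2 fold change at EGME75 in the whole-table fit, and columns are the 39 libraries by group. Colour is the log2 share of piRNA counts minus the mean of that piRNA. The upper block, which holds the 66 called higher, is red in most EGME75 libraries and in replicates 14, 22 and 38 of EGME60, where most other piRNAs are blue in replicates 22 and 38.

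Of the 10 most abundant entries, 5 were called neither way and 5 were called higher at EGME75 in the whole-table fit. The first was piR-rno-49041, which took 0.530% to 20.5% of piRNA counts in EGME0 (median 5.46%). It took 1.95% to 16.4% in EGME50 (median 6.17%), 0.195% to 19.3% in EGME60 (median 6.06%) and 0.189% to 9.14% in EGME75 (median 3.30%). On this scale all groups overlapped, and the spread among vehicle males alone covered most of the range. Per 1000000 table counts, the medians of piR-rno-49041 were 2008, 2475, 1011 and 553 from EGME0 to EGME75. On that scale 10 of 10 EGME75 libraries lay below the EGME0 median, and 1 of them lay below all EGME0 libraries. Its log2 fold change at EGME75 was -1.21 (SE 0.68, edgeR adjusted p = 0.142) with TMM factors. With RLE factors it was -2.14 (adjusted p = 0.00891) and with library totals -2.66 (adjusted p = 0.00265, edgeR), so the call for the most abundant piRNA depended on the scaling. Its neighbours by number, piR-rno-49043 and piR-rno-49042, followed it from library to library. Over the 39 libraries, the Pearson correlation of log2 shares with piR-rno-49041 was 0.98 for piR-rno-49043 and 0.97 for piR-rno-49042, and the next most alike member was piR-rno-40409 (0.87). These points share depth and denominator. The 3 neighbours together took 0.966% to 42.9% of piRNA counts in EGME0 (median 11.2%) and 0.264% to 19.5% in EGME75 (median 5.83%). Per 1000000 table counts, the medians in EGME0 and EGME75 were 1575 and 348 for piR-rno-49043 and 855 and 182 for piR-rno-49042. For both, 10 of 10 EGME75 libraries lay below the EGME0 median on that scale. At EGME75, piR-rno-49043 changed by -1.63 (SE 0.71, edgeR adjusted p = 0.0629) and piR-rno-49042 by -1.61 (SE 0.69, adjusted p = 0.0578) on the log2 scale. With RLE factors these values were -2.53 (edgeR adjusted p = 0.00386) and -2.50 (adjusted p = 0.00351). With TMM factors, both were called lower when replicate 25, 26 or 34 of EGME0, replicate 5 of EGME60, or replicate 8 or 32 of EGME75 was left out, and piR-rno-49042 also without replicate 33 of EGME0. In those fits the edgeR adjusted p lay between 0.0316 and 0.0494.

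The other abundant entries without a call were piR-rno-2141253 and piR-rno-833849. The share of piR-rno-2141253 was 3.82% to 19.9% in EGME0 (median 8.67%), 2.22% to 20.3% in EGME50 (median 6.83%), 1.86% to 9.97% in EGME60 (median 5.68%) and 0.990% to 8.30% in EGME75 (median 5.63%). All 10 EGME75 libraries lay below the EGME0 median, yet most lay within the EGME0 range. The log2 fold change of piR-rno-2141253 at EGME75 was -0.95 (SE 0.44, edgeR adjusted p = 0.0814), and -1.70 (adjusted p = 0.0011) with RLE factors. It was called lower without replicate 3 or 12 of EGME50, replicate 5 of EGME60 or replicate 32 of EGME75 (edgeR adjusted p between 0.046 and 0.0496). The share of piR-rno-833849 had medians of 4.50%, 5.18%, 4.31% and 5.10% and a range of 2.13% to 9.20% in EGME0 against 3.23% to 7.68% in EGME75. Per 1000000 table counts its medians were 2218, 2298, 1706 and 1197, with 10 of 10 EGME75 libraries below the EGME0 median. Its log2 fold change at EGME75 was 0.03 (SE 0.37, edgeR adjusted p = 0.952), and -0.81 (adjusted p = 0.0424) with RLE factors. The sign of this value therefore depended on the scaling.

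The 5 abundant entries called higher were piR-rno-40432, piR-rno-835871, piR-rno-41525, piR-rno-216283 and piR-rno-40431. Dosed libraries raised the sums that ranked them, so the counts that ranked them were also those tested. For piR-rno-835871, 4200 of 68208 counts were in EGME0 and 37269 in EGME75. For piR-rno-216283, 3305 of 55452 were in EGME0 and 18279 in EGME75. The clearest separation was that of piR-rno-835871: it took 0.236% to 0.895% of piRNA counts in EGME0 (median 0.492%) and 2.56% to 8.32% in EGME75 (median 5.26%). Every EGME75 library lay above every EGME0 library. EGME50 libraries spanned 0.278% to 3.39% (median 0.910%) and EGME60 libraries 0.353% to 5.63% (median 1.32%), with 5 of 10 and 6 of 9 above all vehicle libraries. For piR-rno-835871 the log2 fold change was 1.06 (SE 0.46, edgeR adjusted p = 0.348) at EGME50, 2.03 (SE 0.48, adjusted p = 0.000812) at EGME60 and 3.47 (SE 0.50, adjusted p = 7.04e-07) at EGME75. With RLE factors and with library totals the EGME75 value was 2.56 and 2.37.

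A like separation was seen for piR-rno-216283, at 0.204% to 0.710% in EGME0 (median 0.375%), 0.458% to 3.04% in EGME50 (median 1.08%), 0.425% to 5.00% in EGME60 (median 1.47%) and 1.67% to 4.11% in EGME75 (median 2.38%). On this scale no EGME75 library overlapped EGME0, while as counts scaled to the table total replicate 7 of EGME75 lay inside the EGME0 range and 9 of 10 lay above it. Its log2 fold change was 2.84 (SE 0.49) at EGME60 and 2.69 (SE 0.48) at EGME75, with edgeR adjusted p-values of 1e-05 and 1.06e-05. The other 3 overlapped the vehicle group. The share of piR-rno-40432 was 0.145% to 3.29% in EGME0 (median 0.752%) and 1.31% to 15% in EGME75 (median 5.69%), with 7 of 10 EGME75 libraries above all EGME0 libraries. Between these, EGME50 and EGME60 had medians of 1.61% and 1.53%. Its neighbour piR-rno-40431 followed it (correlation 0.99 over 39 libraries), at 0.114% to 1.60% in EGME0 (median 0.456%) and 0.975% to 11.0% in EGME75 (median 4.05%). For piR-rno-41525 the range was 0.189% to 1.95% in EGME0 (median 0.545%) and 1.2% to 7.22% in EGME75 (median 4.01%), where 9 of 10 libraries lay above all of EGME0. The log2 fold changes of piR-rno-40432, piR-rno-40431 and piR-rno-41525 at EGME75 were 2.74 (SE 0.57), 2.89 (SE 0.56) and 2.60 (SE 0.54), all with an edgeR adjusted p of at most 0.00012. These 3 kept an upward call in each of the 3 scalings.

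**Figure D4:**
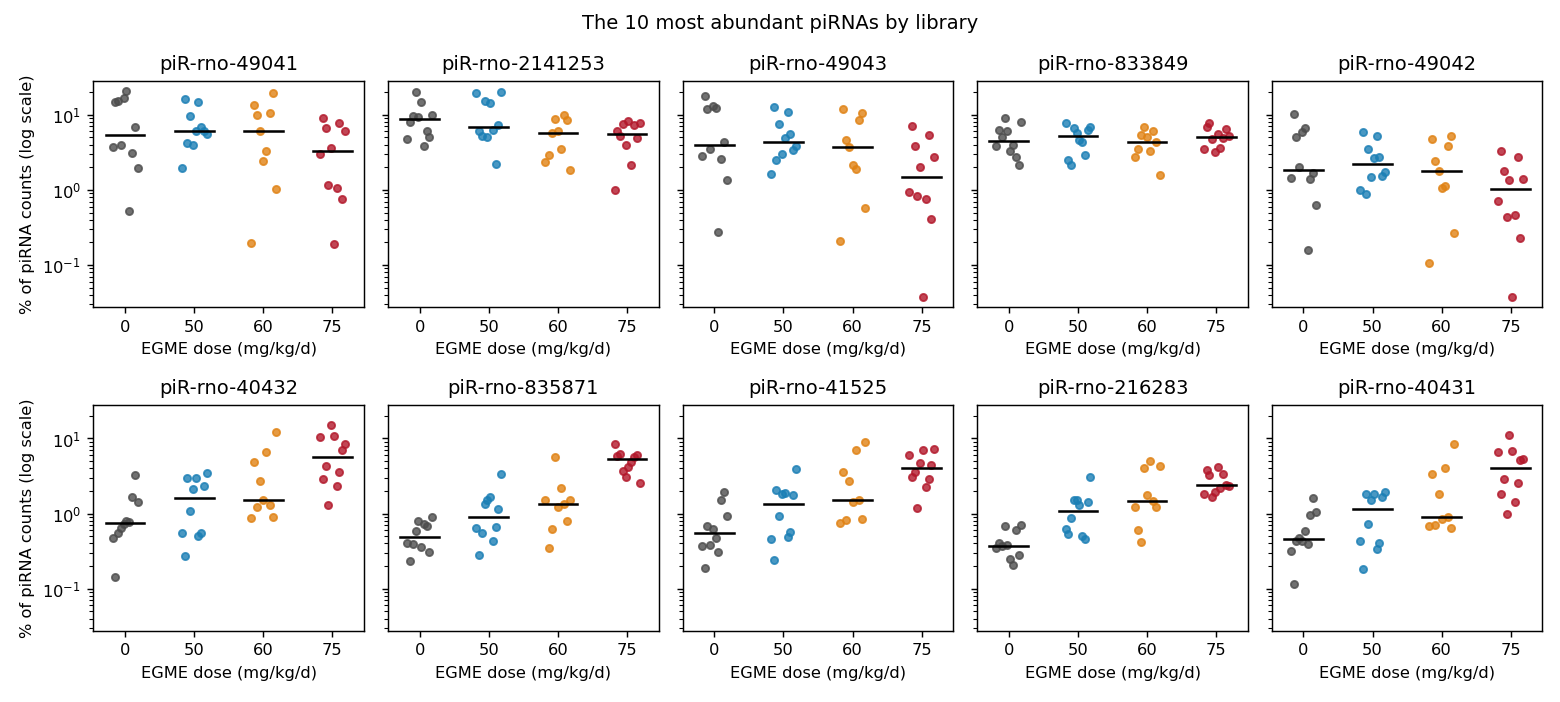
Share of piRNA counts (percent, log axis) of each of the 10 most abundant piRNAs in every library at each dose in mg/kg/d, with the group median as a line. The upper row holds the 5 entries called neither way, whose groups overlap, and the lower row the 5 called higher at EGME75, such as piR-rno-835871 with medians of 0.492% in EGME0 and 5.26% in EGME75.

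The largest log2 fold changes were found in members that were nearly without counts in vehicle males. piR-rno-546140 had 14 counts over the 10 EGME0 libraries together, 136 in EGME50, 810 in EGME60 and 1237 in EGME75. Its counts in EGME0 and EGME50 lay far below the 825 counts at rank 300. It thus entered the 300 through EGME60 and EGME75, so the counts that chose it were also those tested. As a share of piRNA counts it ranged from 0% to 0.00944% in EGME0 (median 0.000465%), 0.00188% to 0.0593% in EGME50 (median 0.00729%), 0% to 0.308% in EGME60 (median 0.0278%) and 0.105% to 0.221% in EGME75 (median 0.174%). All EGME75 libraries lay above all EGME0 libraries, while replicate 6 of EGME60 had no count. A count of 0 allows a share of up to 3 counts of the library's piRNA counts, which is 0.000995% in the deepest and 0.113% in the shallowest library. The log2 fold change of piR-rno-546140 was 3.10 (SE 0.84) at EGME50, 5.78 (SE 0.91) at EGME60 and 6.62 (SE 0.93) at EGME75, with edgeR adjusted p-values of 0.0412, 5.21e-06 and 7.04e-07.

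A second such entry, piR-rno-3792797, took 0.00369% to 0.0425% of piRNA counts in EGME0 (median 0.00917%), 0.00940% to 0.342% in EGME50 (median 0.0621%), 0.0126% to 1.47% in EGME60 (median 0.165%) and 0.489% to 1.52% in EGME75 (median 1.06%). Its log2 fold changes were 3.01 (SE 0.73, edgeR adjusted p = 0.0169), 5.55 (SE 0.81, adjusted p = 4.75e-06) and 6.56 (SE 0.84, adjusted p = 7.04e-07). These were the only 2 members called at EGME50 with TMM factors, and RLE factors and library totals called them too. With chip as a block neither was called at EGME50 (edgeR adjusted p = 0.36 for piR-rno-546140 and 0.284 for piR-rno-3792797). Without replicate 12 of EGME50 the values fell to 2.29 (adjusted p = 0.332, edgeR) and 2.24 (adjusted p = 0.161, edgeR). The EGME50 call of piR-rno-3792797 also ended without replicate 2 of EGME0 (edgeR adjusted p = 0.078) or replicate 20 of EGME50 (0.0785). That of piR-rno-546140 ended in 15 of the 39 fits with 1 library left out, among them those without replicates 1, 2, 10, 17, 18, 25, 33 and 34 of EGME0. The others left out replicates 3, 12, 19, 20, 35 and 36 of EGME50 and replicate 5 of EGME60 (edgeR adjusted p from 0.0513 to 0.332 over the 15). In the piRNA-only fit neither was called at EGME50 (edgeR adjusted p = 0.594 for both), while their EGME75 values were 7.14 and 7.11.

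Next came piR-rno-647108, at 0.00499% to 0.0708% in EGME0 (median 0.0108%), 0.00940% to 0.150% in EGME50 (median 0.0717%), 0.0172% to 3.22% in EGME60 (median 0.0850%) and 0.115% to 1.79% in EGME75 (median 0.547%). Its log2 fold change was 5.49 (SE 0.85) at EGME60 and 5.64 (SE 0.85) at EGME75. In EGME60 a single library, replicate 38, stood at 3.22%, above the next at 1.12%. The counts of piR-rno-626155 were nearly equal to those of piR-rno-647108 in every library, so its value at EGME75 (5.61, SE 0.86) is not a second observation. piR-rno-2281827 was sparser, with 21 counts in all EGME0 libraries and 648 in all EGME75 libraries. Its share was 0% to 0.00944% in EGME0 (median 0.00200%) and 0.0259% to 0.465% in EGME75 (median 0.0482%). The counts of 0 in replicates 18 and 33 of EGME0 leave the separation uncertain, since 3 counts in the shallow replicate 33 would exceed the lowest EGME75 shares. The log2 fold change of piR-rno-2281827 at EGME75 was 5.50 (SE 0.83). All 3 had edgeR adjusted p-values of at most 1.15e-06 at EGME75. The 21 EGME0 counts of piR-rno-2281827 lay far below the 825 counts at rank 300. As for piR-rno-546140, counts in dosed libraries raised the sums that chose these 3 entries and piR-rno-3792797. The counts that chose them were thus also those tested.

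Members called lower had smaller summed counts and changed less. The 76 held 9.15% of the members' counts with a median summed count of 1183.5, against 31.5% and a median of 3133 for the 66 called higher. Of the 50 most abundant members, 29 were called higher and 8 lower, and of the last 50, 3 were higher and 14 lower. These sums include the dosed libraries, so a rise with dose itself raised the sum and rank, and a fall lowered them. They are a description. The lowest value was that of piR-rno-49249, at 0% to 0.105% of piRNA counts in EGME0 (median 0.0700%), 0% to 0.126% in EGME50 (median 0.0381%), 0% to 0.0833% in EGME60 (median 0.0252%) and 0% to 0.0312% in EGME75 (median 0.0112%). The 7 EGME75 libraries with counts lay below the EGME0 median, and each group held at least 1 library with 0 counts. Its summed counts were 537, 484, 283 and 95 over the libraries of each group. The log2 fold change of piR-rno-49249 at EGME75 was -2.37 (SE 0.62, edgeR adjusted p = 0.00182), and -2.48 (adjusted p = 0.007) with chip as a block.

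The shares of piR-rno-34231 were 0.0164% to 0.0962% in EGME0 (median 0.0427%) and 0% to 0.0191% in EGME75 (median 0.00671%). Replicates 7, 23 and 24 of EGME75 had no count, which in the shallow replicates 23 and 24 sets no limit below the EGME0 range. Its log2 fold change at EGME75 was -2.05 (SE 0.56, edgeR adjusted p = 0.00319). The share of piR-rno-46632 was 0.0118% to 0.0775% in EGME0 (median 0.0235%) and 0% to 0.0212% in EGME75 (median 0.00741%), with no count in the same 3 libraries. For piR-rno-30168 and piR-rno-27656 the EGME0 medians were 0.0264% and 0.0270% and the EGME75 medians 0.00591% and 0.00693%. Both overlapped, with 0 counts in some libraries of EGME0 and of EGME75. At EGME75, piR-rno-30168 changed by -2.01 (SE 0.61, edgeR adjusted p = 0.00748), piR-rno-27656 by -1.98 (SE 0.65, adjusted p = 0.014) and piR-rno-46632 by -1.98 (SE 0.69, adjusted p = 0.022). With no filter on low counts, edgeR's adjusted p was 0.0624 for piR-rno-34231, 0.0658 for piR-rno-30168, 0.0601 for piR-rno-27656 and 0.0508 for piR-rno-46632, so none of the 4 was called. With chip as a block, piR-rno-27656 and piR-rno-46632 were not called (edgeR adjusted p = 0.114 and 0.0916). Without replicate 1 of EGME0, piR-rno-30168, piR-rno-27656 and piR-rno-46632 were not called (edgeR adjusted p = 0.0808, 0.0819 and 0.12). Without replicate 18 of EGME0 the values were 0.076, 0.0698 and 0.064, and without replicate 4 of EGME50 0.0569, 0.0777 and 0.0551 (edgeR adjusted p). Leaving out replicate 10 of EGME0 ended the call for piR-rno-30168 (edgeR adjusted p = 0.0566) and piR-rno-27656 (0.0618). The call for piR-rno-27656 also ended without replicate 9 of EGME0 (edgeR adjusted p = 0.0543) or replicate 16 of EGME75 (0.0532). In the piRNA-only fit piR-rno-49249, piR-rno-30168 and piR-rno-27656 had the lowest values among called members, at -2.08, -1.77 and -1.75. There the call for piR-rno-27656 ended without replicate 34 of EGME0 (edgeR adjusted p = 0.0548) or replicate 7 of EGME75 (0.0501). With no filter on low counts neither piR-rno-30168 nor piR-rno-27656 was called in that fit (edgeR adjusted p = 0.113 for both), and with chip as a block piR-rno-27656 was not (0.0692).

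As groups, the members called higher at EGME75 took 6.67% ± 4.01 of piRNA counts in EGME0 (n = 10), 13.3% ± 9.02 in EGME50 (n = 10), 31% ± 28.2 in EGME60 (n = 9) and 50.3% ± 19 in EGME75 (n = 10, all SD). The EGME75 libraries (18.9% to 76.5%) did not overlap the EGME0 libraries (2.40% to 15.6%), and EGME60 libraries reached from 6.94% to 82.1%. As a share of table counts the same members took 0.260% ± 0.110 in EGME0 and 1.05% ± 0.409 in EGME75. The members called lower took 7.90% ± 2.33 of piRNA counts in EGME0 and 3.26% ± 1.25 in EGME75. Those called neither way took 44.3% ± 17 and 24.5% ± 8.76. These sums are a description, because the same contrast formed the groups.

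The rRNA share and the marker miRNAs were set beside these sums. The 4 libraries in which the members called higher took over 70% of piRNA counts were replicates 22 (72.4%) and 38 (82.1%) of EGME60 and replicates 7 (76.5%) and 24 (73.6%) of EGME75, and rRNA entries took 78.8%, 80.2%, 90.7% and 70.2% of their table counts. In EGME75 the smallest sum, 18.9% in replicate 16, came with the smallest rRNA share of that group, 48.4%. Exceptions were replicate 6 of EGME60, with 27.9% at an rRNA share of 32.6%, and replicate 36 of EGME50, with 31.9% at 51.3%. Replicate 31 of EGME75 had the opposite, with 27.7% at 72.4%. Among the marker miRNAs, 6 of 7 blood cell miRNAs, 9 of 9 epithelial and muscle miRNAs and 6 of 6 germ cell miRNAs were in the miRNA table, and none of these was at 0 in every library. The blood cell list summed to 0% to 0.343% of miRNA counts in EGME0, 0.119% to 1.24% in EGME50, 0.0216% to 2.17% in EGME60 and 0.248% to 4.82% in EGME75. The epithelial and muscle list summed to 1.63% to 3.92%, 1.56% to 7.91%, 1.56% to 13.1% and 3.59% to 13.2%. The germ cell list summed to 19.8% to 33.1%, 11.1% to 25.5%, 10.9% to 28.1% and 6.47% to 22.1%. Within EGME60, the highest blood cell value (replicate 5, 2.17%) came with 11.0% of piRNA counts in the members called higher. The highest epithelial and muscle value there (replicate 29, 13.1%) came with 14.9%. In EGME75, the highest blood cell value (replicate 7, 4.82%) came with 76.5%. The part of rRNA share, depth and other cell types in the piRNA differences was not tested.

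**Figure D5:**
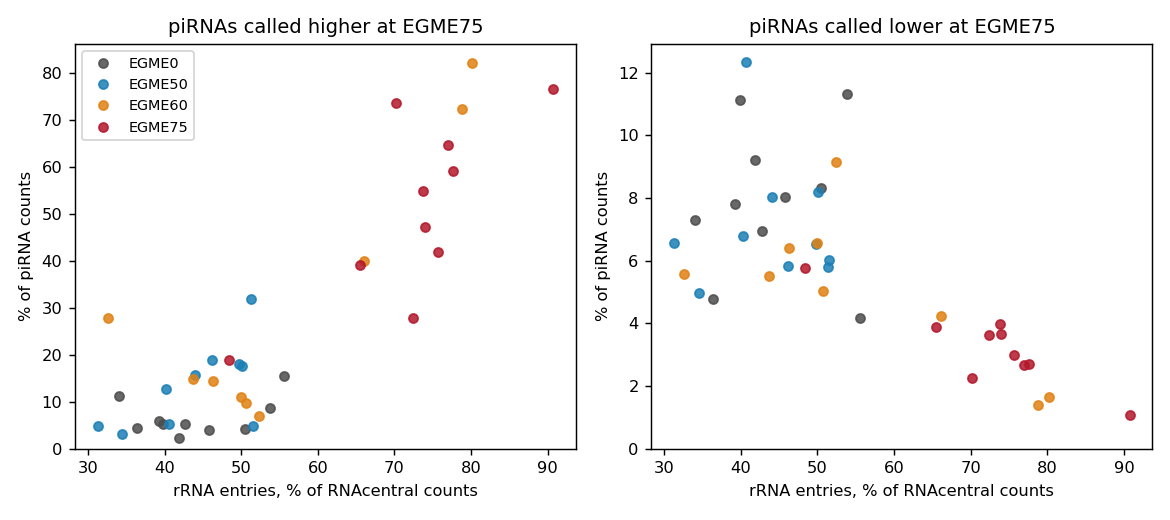
Each point is a library, coloured by dose group. The x axis is the share of rRNA entries in table counts (percent), and the y axis the share of piRNA counts (percent) held by the members called higher (left) or lower (right) at EGME75. Replicate 38 of EGME60, at an rRNA share of 80.2%, has a sum of 82.1% on the left and 1.65% on the right, while replicate 31 of EGME75, at 72.4%, has 27.7% on the left.

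Members called the same way varied together across libraries. On log2 shares of piRNA counts over the 39 libraries, the median Pearson correlation was 0.51 over all 44850 pairs of members. It was 0.86 between members called higher, 0.75 between members called lower and -0.53 between the 2 kinds, as a description that shares depth, denominator and the contrast itself. Each member was also matched to the entry outside the piRNA class with the most alike log2 scaled counts. Among the 66 called higher, the best match was an rRNA entry for 55 (83.3%). Entries that rise at EGME75 must match others that do, and of the 436 entries outside the piRNA class called higher there, 173 (39.7%) were rRNA. These shares are a description. It was an rRNA entry for 0 of the 76 called lower and for 4 of the other 158. Of the 76, 17 (22.4%) were best matched by entries of the tRNA class, and 3 more by entries known as tRNA only by name. Long non-coding RNA entries matched 17 (22.4%) and entries of the mixed class otherRNA matched 39 (51.3%). Of the 229 entries outside the piRNA class called lower at EGME75, 56 (24.5%) were rRNA and 37 (16.2%) tRNA by class. Among the same entries, 57 (24.9%) were long non-coding RNA and 53 (23.1%) otherRNA. These counts are a description too. piR-rno-216283 was matched by an rRNA entry with a correlation of 0.99, piR-rno-3792797 with 0.98 and piR-rno-40432 with 0.92. Other members called higher had other matches: piR-rno-835871 an otherRNA entry (0.97) and piR-rno-2281827 a long non-coding RNA entry (0.94). The best match of piR-rno-49041 and of piR-rno-49043 was an entry named for tRNA-Val, with correlations of 0.99 and 0.99 over the 39 libraries. That of their neighbour piR-rno-49042 was a long non-coding RNA entry (0.99). Whether these entries share sequence was not tested.

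Some members are unlikely to be separate measurements, since their counts were almost the same in every library. Joining members whose summed difference was under 5% of their counts gave 21 sets with 48 members and left 273 distinct patterns. On these patterns, 53 were higher and 69 lower at EGME75, and 52 were higher at EGME60. The largest set held 5 members, piR-rno-1514619 to piR-rno-1514622 and piR-rno-2257447, and another held piR-rno-216283 and piR-rno-692808. Among consecutive database numbers, 14 runs held 34 members, the lowest correlation within a run was 0.64, and in 11 runs all members had one call. The 0.64 was that of piR-rno-49186 and piR-rno-49187, both called lower. It lay below the median of 0.75 between members called lower. Some runs, such as piR-rno-1514619 to piR-rno-1514622, lie within the near-equal sets. These run counts are a description. Near-equal counts to an entry of another class were found for 2 members, named here after their values were seen. piR-rno-2177022 differed by 0.280% and piR-rno-843871 by 1.96% from entries named for tRNA-Leu. In the whole-table fit these 2 were called lower at EGME75, at -1.25 (edgeR adjusted p = 0.0345) and -1.29 (adjusted p = 0.0293). Another class came within 10% for 12 members in all.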

How the data were processed

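Small RNA of sperm from 39 male rats was sequenced on 13 chips of 3 libraries, from 10 ng RNA each (mirVana extraction with DNase, Ion total RNA-seq kit v2), per the labels' protocols. The authors deposited counts per RNAcentral entry in the sense direction, with Rnor_6.0 in the file names. FastQC, Bowtie and DESeq2 are named in the submitters' processing notes without roles. The treatment of reads that map to several entries is not given in the sources used here.

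Groups were taken from the labels. Members and lists were chosen with earlier results of these data known. Counts were fitted with edgeR 4.0.16 (R 4.3.3): rows passing filterByExpr by group, library sizes recomputed, TMM factors (0.212 to 2.47 in the whole-table fit, 0.171 to 3.81 in the piRNA-only fit), robust quasi-likelihood tests against EGME0 or on dose, Benjamini-Hochberg adjustment over all rows tested, threshold 0.05. SEs are the log2 fold change divided by the square root of F. The slope is the log2 change over 75 mg/kg/d. Scripts were tested on simulated data. Shares were compared by permutation (100000 draws, exact for EGME60). Marker lists are sums of mature miRNA counts. DESeq2 1.42.0, other scalings, chip, depth and left-out libraries were alternatives. Counting intervals cover counting error only.

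Named piRNAs are the 10 most abundant, the 5 highest and 5 lowest called at EGME75, the 3 highest and lowest called at EGME60 and EGME50, the 3 highest and lowest called in the piRNA-only fit, ranks 300 and 301, and the 3 most like the first. No 2 libraries had identical counts.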

Additional observations from a re-analysis of the deposited data

Results flagged for a closer look

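In 92 groups of 9 or 10 libraries (23 measures in 4 groups), the highest and the lowest library were checked. In 21 groups the gap to the next library exceeded Dixon's critical value, and each time the highest library stood apart. Chance gives about 1 in 20 only for independent measures with a normal spread. That spread was not tested, and some measures repeat each other, such as piR-rno-647108 and piR-rno-626155 with near-equal counts. The 21 are thus a description and cannot be set against that rate. The piRNA share of table counts in replicate 4 of EGME50 was 10.6%, with the next library at 6.10%. All other values are shares of piRNA counts.

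In EGME0, replicate 26 was highest for piR-rno-546140 (0.00944%, next 0.00483%), piR-rno-3792797 (0.0425%, next 0.0221%), piR-rno-647108 (0.0708%, next 0.0383%) and piR-rno-2281827 (0.00944%, next 0.00372%). Replicate 33 was highest for piR-rno-40432 (3.29%, next 1.67%).

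In EGME50, replicate 36 was highest for piR-rno-835871 (3.39%, next 1.67%), piR-rno-41525 (3.92%, next 2.04%), piR-rno-216283 (3.04%, next 1.53%) and piR-rno-2281827 (0.0182%, next 0.00934%). Replicate 12 was highest for piR-rno-546140 (0.0593%, next 0.0308%) and replicate 3 for piR-rno-34231 (0.0714%, next 0.0408%).

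In EGME60, replicate 38 was highest for piR-rno-40431 (8.43%, next 4.04%), piR-rno-647108 (3.22%, next 1.12%) and piR-rno-626155 (3.36%, next 1.17%). Replicate 14 was highest for piR-rno-835871 (5.63%, next 2.22%) and replicate 13 for piR-rno-49249 (0.0833%, next 0.0422%).

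In EGME75, replicate 7 was highest for piR-rno-2281827 (0.465%, next 0.0623%), and replicate 16 for piR-rno-49249 (0.0312%, next 0.0146%). Replicate 31 was highest for piR-rno-30168 (0.0280%, next 0.0111%) and piR-rno-27656 (0.0212%, next 0.0111%).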

How the results depend on the processing

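No paired analysis was possible because a replicate number names 1 male of 1 group and is not shared between groups. The causes of the changes below were not tested. For the piRNA share, the EGME75 difference was -1.74 points with chip as a block and -0.0561 points over all 4 tables, and neither passed. Only part of the chips held both EGME0 and EGME75 libraries. The EGME60 difference turned to 0.0692 points over all 4 tables. The EGME50 difference turned to -0.0857 as a log2 ratio of piRNA to other counts. Leaving out 1 library at a time gave -2.38 to -1.77 points at EGME75, -1.84 to -0.852 at EGME60 and -0.639 to 0.420 at EGME50. The lowest EGME50 value was without its replicate 4.

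Members called in the whole-table fit at EGME75 numbered 239 with RLE factors, 257 with DESeq2, 66 with no filter, 70 with chip as a block and 72 to 163 with 1 library left out. The slope gave 158 with RLE factors, 209 with DESeq2 and 67 to 136 with 1 library left out (128 without replicate 3 of EGME50, 136 without replicate 5 of EGME60). EGME50 gave 5 with no filter, 0 with chip as a block (7 at an unadjusted p under 0.05 with edgeR), 1 with library sizes from all rows, an alternative chosen after seeing the data, and 0 to 6 with 1 library left out (0 without replicate 2 of EGME0 or 12 or 20 of EGME50, 6 without replicate 4 or 27 of EGME50). EGME60 gave 52 to 72.

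In the piRNA-only fit, EGME75 gave 266 with RLE factors, 268 with DESeq2, 64 with no filter, 56 with chip as a block and 67 to 110 with 1 library left out (67 without replicate 7 of EGME75). EGME60 gave 19 with RLE factors, 36 with chip as a block, 36 without its replicates 22 and 38 (chosen after seeing the data) and 54 to 72 with 1 left out. The slope gave 259 with RLE factors, 271 with DESeq2, 46 with chip as a block and 66 to 81 with 1 left out. EGME50 gave 1 with library totals and 1 with DESeq2.

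The log2 fold change of piR-rno-833849 at EGME75, 0.03, turned to -0.81 with RLE factors and with DESeq2, -0.96 with library totals, -0.15 with no filter, -0.0449 with chip as a block, -0.0938 with depth as a covariate and -0.0771 with library sizes from all rows. With 1 library left out it lay between -0.0846 and 0.452 and turned in 11 of 39 fits. The smallest library by table total is replicate 24 of EGME75, covered among these. Low depth limited detection most in replicate 33 of EGME0 and replicate 24 of EGME75. Without these 2 libraries, an alternative chosen after seeing the data, EGME75 had 71 members higher and 67 lower in the whole-table fit.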
